A study of Mus musculus with 30 samples.

Results

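Rab GTPases are small Ras-like proteins that mark the membranes of the secretory and endocytic pathways. Their transcripts were taken as all rows of the count table whose mouse gene symbol is Rab followed by a number and, at most, one letter from a to d, which gave 59 genes of the 36103 genes in the table. They were measured by RNA-seq in whole gastrocnemius, diaphragm, heart and liver of 5-week-old male mice of the pure 129Pas background, either wild type (WT) littermates or Mtm1-/y knockout mice. The knockout is a constitutive disruption of the X-linked gene for myotubularin, a lipid phosphatase, and so is not limited to muscle, and no group received a drug or a vector. There were 4 libraries per genotype for the gastrocnemius and for the heart. The diaphragm was represented by 4 WT libraries and by the Mtm1-/y libraries numbered 1, 2 and 4, the liver by 3 WT and 4 Mtm1-/y libraries. The labels do not tie the replicate numbers to animals, so p-values measure the spread between libraries.

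A Rab protein cycles between a GDP-bound form held in the cytosol and a GTP-bound form on a membrane. Guanine nucleotide exchange factors (GEFs) load it with GTP, GTPase-activating proteins (GAPs) switch it off, and GDP dissociation inhibitors (GDIs) take the prenylated GDP form off the membrane. In its GTP form each Rab recruits effectors such as tethers, motors and lipid kinases. Rab5 on early endosomes recruits a kinase that makes phosphatidylinositol 3-phosphate, the lipid that myotubularin removes, and Rab7 marks the late endosomes that follow. Rab8, Rab10 and Rab13 drive vesicles to the plasma membrane, and in muscle and fat they carry the insulin-responsive glucose transporter.

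The libraries held between 24873817 and 44289343 counted reads, and 48 of the 59 members were counted in every library, while 0 were uncounted throughout. The 59 genes lie on 18 chromosomes, 4 of them on the X. Mtm1 stood at 12.5 to 31.7 CPM (counts scaled by each library's effective size) in the 15 WT libraries and at 3.37 to 6.39 CPM in the 15 Mtm1-/y libraries, so no library went against its label. Tissue labels were borne out by defining markers: 8 muscle fibre genes summed to 213535 to 255909 CPM in WT gastrocnemius and to 49230 to 75897 CPM in WT diaphragm, 6 cardiomyocyte genes to 39522 to 58997 CPM in WT heart, and 8 hepatocyte genes to 173875 to 193189 CPM in WT liver. The diaphragm libraries also held hepatocyte transcripts, from 444 to 35143 CPM in WT and from 764 to 44903 CPM in Mtm1-/y, against at most 142 CPM in any gastrocnemius or heart library. Exons of 6 members overlap another gene on the same strand and those of 15 overlap one on the other strand. Ambiguous reads were not counted, and the strand setting of the counting is not given in the sources used here. Values of Rab10, Rab11a, Rab11b, Rab18, Rab20, Rab22a, Rab24, Rab26, Rab27a, Rab2b, Rab33b, Rab39b, Rab3a, Rab3b, Rab40c, Rab43, Rab4b, Rab5a, Rab6a and Rab7 could therefore lack reads from shared exon stretches.

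Of the 59 genes, 48 had a promoter in the RefSeq tables of the mouse build GRCm38.p6, given as 250 bases before to 50 bases after the transcription start. The promoters of 4 members are shown, 5′ to 3′ on the gene's own strand. Rab15 and Rab40b had higher means in both Mtm1-/y muscles, as did other members that rose, and Rab12 and Rab10 are abundant members that fell in the gastrocnemius. Capitals mark CAGCTG, one form of the E-box that the myogenic regulators bind. Rab15 is at chr12:76822475-76822774, Rab40b at chr11:121388202-121388501, Rab12 at chr17:66519621-66519920 and Rab10 at chr12:3309920-3310219, all on the minus strand.
Rab15: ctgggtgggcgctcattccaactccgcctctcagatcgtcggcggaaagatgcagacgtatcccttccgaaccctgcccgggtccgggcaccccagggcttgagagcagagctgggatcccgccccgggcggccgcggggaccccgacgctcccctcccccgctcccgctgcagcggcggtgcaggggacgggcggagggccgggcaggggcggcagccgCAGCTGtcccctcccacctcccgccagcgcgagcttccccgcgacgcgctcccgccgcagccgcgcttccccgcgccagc
Rab40b: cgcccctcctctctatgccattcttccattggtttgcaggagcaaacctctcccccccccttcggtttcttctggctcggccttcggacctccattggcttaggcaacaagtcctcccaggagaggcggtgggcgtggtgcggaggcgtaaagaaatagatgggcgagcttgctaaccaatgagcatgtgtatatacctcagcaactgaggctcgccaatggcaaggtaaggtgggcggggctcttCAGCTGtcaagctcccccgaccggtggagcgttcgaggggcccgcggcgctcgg
Rab12: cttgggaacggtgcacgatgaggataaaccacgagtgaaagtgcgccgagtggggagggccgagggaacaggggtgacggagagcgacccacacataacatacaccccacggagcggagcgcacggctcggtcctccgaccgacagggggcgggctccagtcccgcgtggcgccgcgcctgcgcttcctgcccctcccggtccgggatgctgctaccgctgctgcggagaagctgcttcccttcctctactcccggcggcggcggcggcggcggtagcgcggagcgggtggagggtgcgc
Rab10: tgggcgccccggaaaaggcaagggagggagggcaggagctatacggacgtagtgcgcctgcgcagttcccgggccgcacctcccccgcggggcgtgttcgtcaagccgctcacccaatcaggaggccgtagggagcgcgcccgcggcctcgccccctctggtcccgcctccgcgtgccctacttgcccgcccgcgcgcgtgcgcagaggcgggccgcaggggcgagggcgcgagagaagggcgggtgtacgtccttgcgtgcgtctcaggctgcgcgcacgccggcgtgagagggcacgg
CAGCTG begins 30 bases before the RefSeq start used for Rab15 and 4 bases before that used for Rab40b. These letters are not in the windows of Rab12 and Rab10. The Rab15 window lies wholly inside the annotated span of the gene, whose 5′ end is at 76822908, so it is not upstream of that end. CAGCTG reads the same on both strands and was found in 12 of the 48 members (25.0%), against 16.3% of 32817 promoters. The 2 sets are not alike. Members were counted with 1 promoter a gene, the 32817 with every distinct window. The median GC content was 61.7% in the members and 52.7% in all promoters. Among members that rose in Mtm1-/y gastrocnemius 2 of 11 held it (Rab15 and Rab40b, both shown). Among those that fell 2 of 7 did (Rab22a and Rab5b, not shown), so the 4 windows do not stand for the 2 sets. A second motif, CACGTG, also palindromic and not overlapping the first, was in 5 of 48 members (10.4%), against 7.15% of all promoters. It was in 1 of 11 members that rose (Rab5a) and in 0 of 7 that fell. The motifs were chosen after the values were seen, and a match is a description of the letters only.

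In the gastrocnemius 49 of the 59 members passed the filter on low counts, and 21 of them changed in Mtm1-/y mice at an adjusted p under 0.05, 13 upward and 8 downward, or 33 and 2 of 35 when scaled by library totals alone (edgeR's quasi-likelihood test with Benjamini-Hochberg adjustment over all genes). Of all 15456 genes tested, 29.0% passed, 14.1% upward and 14.9% downward. The median log2 fold change was 0.16 over the 49 members and 0.02 over all genes. The members that rose were mostly of lower abundance: their WT means ran from 0.588 to 28 CPM with a median of 9.29 CPM, and together they went from 152 to 238 CPM. The members that fell were mostly more abundant, with WT means from 18.9 to 411 CPM and a median of 77.5 CPM, and together they went from 1067 to 770 CPM. The 2 ranges overlap, and the like medians over all genes that rose or fell were not computed. With a further limit of 1 on the log2 scale, 4 members remained, all of them higher (6.63% of all genes in either direction, 4.84% upward): Rab15, Rab32, Rab44 and Rab13. The 4 WT and 4 Mtm1-/y values did not overlap for 24 of the 49 members, against 30.7% of all genes, and for 20 of the 21 that passed, Rab8a being the exception. These are levels in bulk tissue, where fewer cells of a type and less RNA per cell cannot be told apart.

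**Figure D1:**
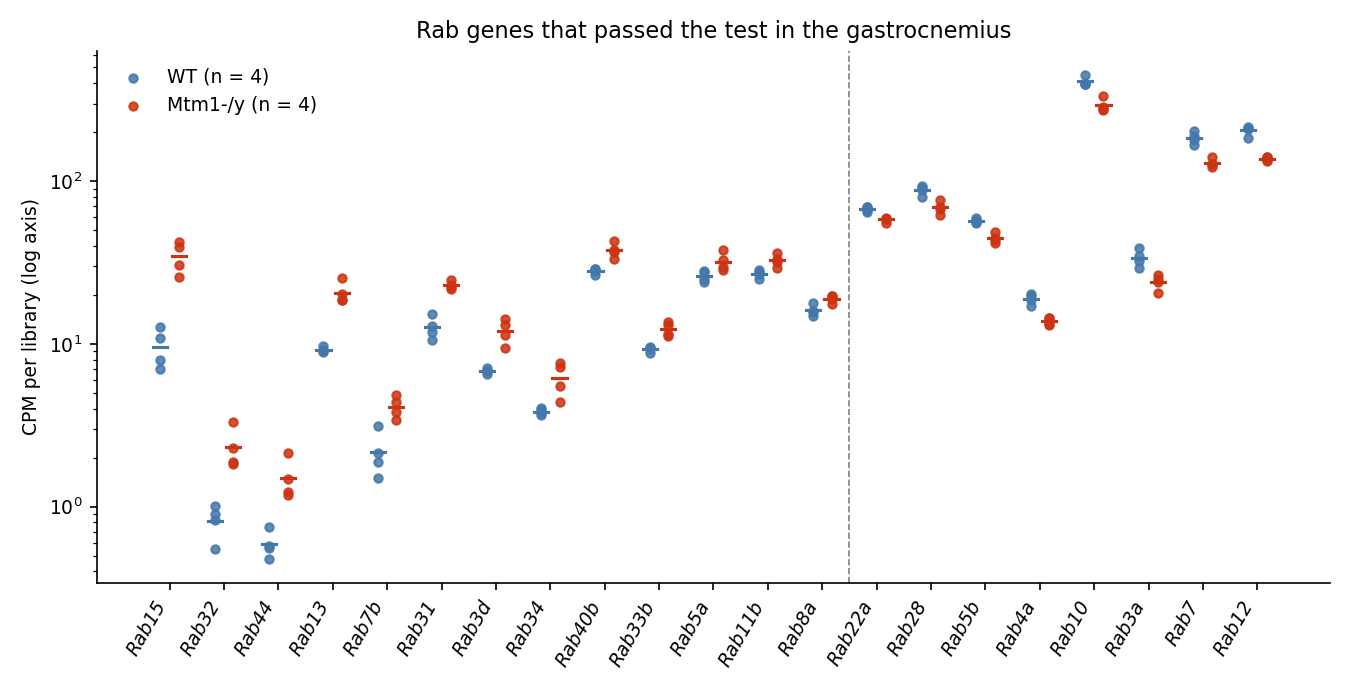
CPM (log axis) of the 21 Rab genes that passed the test in the gastrocnemius, 1 point per library, WT in blue (n = 4) and Mtm1-/y in red (n = 4), with short lines at the group means. The dashed line separates the 13 genes that rose, which lie below 50 CPM, from the 8 that fell, which include Rab10, Rab12 and Rab7 above 100 CPM.

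Cell type markers moved in the same libraries. All 9 macrophage markers rose (sums of 42.1 to 72.2 CPM in WT libraries and 109 to 138 CPM in knockout libraries), 7 of 8 muscle fibre markers fell and 1 rose (Mtm1-/y sum 136727 to 152597 CPM), and of 6 satellite cell and regenerating fibre markers 3 rose and 1 fell (63.3 to 83.1 CPM against 168 to 390 CPM). Of 8 adipocyte markers 6 rose (222 to 339 CPM against 353 to 538 CPM), of 4 fibroblast markers 2 rose (1197 to 3630 CPM against 1302 to 4729 CPM), of 5 epithelial markers 2 rose (1.64 to 4.05 CPM against 16.6 to 46.2 CPM) and of 5 endothelial markers 2 fell (359 to 485 CPM against 277 to 370 CPM). The part of these cell types in the Rab changes was not tested.

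Among the 8 early endosome members, 2 rose and 2 fell, and the 3 Rab5 paralogs did not move together. Rab5b measured 56.2, 57.5, 59.2 and 55.0 CPM in WT replicates 1 to 4 and 48.4, 43.2, 41.8 and 44.9 CPM in Mtm1-/y replicates 1 to 4. Every Mtm1-/y library was below every WT library, and the log2 fold change was -0.35 ± 0.06 with its SE (adjusted p = 0.00314). Rab5a, the paralog with the most studied role in endosome fusion, was at 24.1 to 27.9 CPM in WT and 28.5 to 37.7 CPM in Mtm1-/y (0.29 ± 0.10, adjusted p = 0.049). That call was lost without any 1 of 6 libraries (WT 1, 2, 3 or 4, Mtm1-/y 1 or 2), with log2 fold changes of 0.21 to 0.32 and adjusted p of 0.0693 to 0.122, and also by DESeq2. Rab5c averaged 42.4 ± 2.77 CPM (mean ± SD) over the 4 WT libraries and 43.6 ± 3.04 CPM over the 4 Mtm1-/y libraries, a difference within the spread (0.04 ± 0.07, adjusted p = 0.706).
Rab31, a Rab5-related protein of early endosomes and the trans-Golgi network, was at 11.9, 12.9, 15.2 and 10.5 CPM in WT and 24.5, 21.8, 23.0 and 22.5 CPM in Mtm1-/y. The groups lay well apart (0.86 ± 0.11, adjusted p = 0.000559). Rab22a, its closest relative, moved the other way, from 67.3 ± 2.12 to 58.2 ± 1.84 CPM (-0.21 ± 0.06, adjusted p = 0.019). The Rab22a call was lost without WT 3, WT 4 or Mtm1-/y 1 (-0.20, -0.20 and -0.18, adjusted p 0.0502 to 0.0576). Rab21, an integrin-trafficking Rab, was at 88.4 ± 2.64 and 91.2 ± 7.13 CPM (0.04 ± 0.07, adjusted p = 0.661), while Rab20 (0.44 ± 0.23) and Rab17 (0.20 ± 0.34) did not pass either.

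Of the 8 recycling endosome members 6 were tested, 2 rose and 1 fell. Rab15, an endosomal Rab studied mainly in neurons, had the largest fold change among the members that passed. It was at 10.9, 7.97, 6.98 and 12.7 CPM in WT and at 39.4, 25.9, 30.7 and 42.2 CPM in Mtm1-/y replicates 1 to 4. The lowest Mtm1-/y library was above the highest WT library, and the log2 fold change was 1.84 ± 0.21, or 3.58-fold (adjusted p = 0.000379). The gene (ENSMUSG00000021062) spans chromosome 12, 76797960 to 76822908, on the minus strand of mm10. Rab4a, which sends receptors quickly back to the surface, was at 17.2, 20.2, 18.7 and 19.7 CPM in WT and 13.3, 14.3, 13.0 and 14.5 CPM in Mtm1-/y. It was lower in all 4 knockout libraries (-0.46 ± 0.08, adjusted p = 0.00218). Of the Rab11 pair that defines the recycling endosome, Rab11b went from 27.1 ± 1.5 to 32.6 ± 3.0 CPM (0.27 ± 0.08, adjusted p = 0.0322) and Rab11a from 54.8 ± 2.7 to 57.8 ± 2.48 CPM (0.08 ± 0.06, adjusted p = 0.386). The Rab11b call was lost without WT 1, 2 or 3 or Mtm1-/y 1, 2 or 4 (0.22 to 0.28, adjusted p 0.0546 to 0.0928). Rab14 (95.0 ± 2.73 and 95.2 ± 4.09 CPM; 0.00 ± 0.06, adjusted p = 0.973) and Rab35 (34.0 ± 1.42 and 37.0 ± 1.15 CPM, 0.12 ± 0.06, adjusted p = 0.15) did not pass, although the Rab35 values of the genotypes did not overlap.

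In the late endosome, lysosome and autophagosome group 5 of 6 members were tested, 1 rose and 2 fell. Rab7 (ENSMUSG00000079477, chromosome 6, 87999106 to 88045270, minus strand), which drives fusion with lysosomes, was at 179, 189, 168 and 205 CPM in WT and at 127, 123, 128 and 141 CPM in Mtm1-/y. All 4 Mtm1-/y libraries were below all 4 WT libraries (-0.51 ± 0.08, adjusted p = 0.00129). Rab12, which sends recycling receptors on to lysosomes, was at 185, 217, 209 and 214 CPM in WT and at 136, 140, 133 and 141 CPM in Mtm1-/y. The knockout libraries lay close together and below every WT library (-0.59 ± 0.07, adjusted p = 0.000371), and of the 8 falls this had the smallest p. Rab7b, which acts on the path from late endosomes to the trans-Golgi network, rose from 2.17 ± 0.70 to 4.11 ± 0.63 CPM (0.92 ± 0.23, adjusted p = 0.0135). Rab9, of the return from late endosome to Golgi, was at 15.1 ± 1.04 and 13.1 ± 0.44 CPM (-0.20 ± 0.07, adjusted p = 0.0687), and Rab24 of autophagosomes at 29.9 ± 0.99 and 31.2 ± 0.47 CPM.

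The Rab8 family held the most abundant member of all. Rab10 (ENSMUSG00000020671, chromosome 12, 3247428 to 3309969, minus strand) was at 398, 450, 398 and 397 CPM in WT and 275, 335, 284 and 279 CPM in Mtm1-/y, a log2 fold change of -0.49 ± 0.08 (adjusted p = 0.00224). The second replicate was the highest in both genotypes, and the groups did not overlap. Rab13, of tight junctions and glucose transporter traffic, was at 9.10, 9.73, 8.96 and 9.13 CPM in WT and 25.5, 18.5, 18.5 and 20.2 CPM in Mtm1-/y. It had the smallest p of all 49 members (1.17 ± 0.11, 2.24-fold, adjusted p = 0.00017). Rab8a was at 16.1 ± 1.32 and 18.9 ± 0.96 CPM (0.23 ± 0.08, adjusted p = 0.0486), with overlapping values, and its call was lost without any 1 of 6 libraries (WT 2, 3 or 4, Mtm1-/y 1, 2 or 3; 0.20 to 0.24, adjusted p 0.084 to 0.126) and by DESeq2. Rab8b was at 10.7 ± 1.34 and 14.0 ± 3.28 CPM and did not pass (0.39 ± 0.16, adjusted p = 0.0941).

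Among regulated secretion Rabs, 6 of 8 were tested and the related Rab3d and Rab3a moved in opposite directions. Rab3d, of secretory granules, was at 7.07, 6.83, 6.77 and 6.53 CPM in WT and 13.1, 9.5, 14.3 and 11.3 CPM in Mtm1-/y. The 4 WT values lay within 1 CPM of each other and below all Mtm1-/y values (0.83 ± 0.13, adjusted p = 0.00133). Rab3a, of synaptic vesicles, went from 33.7 ± 4.05 to 24.0 ± 2.53 CPM (-0.49 ± 0.11, adjusted p = 0.00739). Rab27a, Rab27b, Rab37 and Rab3b did not pass, with log2 fold changes from -0.35 to 0.49.

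Of the 3 Rabs of lysosome-related organelles, Rab32 and Rab38 were near the detection limit. Rab32, which also sits on mitochondria, was at 1.00, 0.55, 0.90 and 0.82 CPM in WT and 2.28, 1.88, 3.32 and 1.83 CPM in Mtm1-/y (1.49 ± 0.26, adjusted p = 0.00268). Its sister Rab38 was at 0.28, 0.11, 0.30 and 0.41 CPM in WT and 0.38, 0.70, 1.42 and 0.51 CPM in Mtm1-/y (1.42 ± 0.48, adjusted p = 0.0515, and 0.0417 by DESeq2). For both genes Mtm1-/y replicate 3 was the highest library. That library also held 27.2 CPM of the 5 melanocyte markers, against at most 1.58 CPM in the other 7, and 7.51 CPM of the epithelial Rab25, which was at most 0.08 CPM in the others and was not tested. Without it Rab32 was still called (1.28, adjusted p = 0.00378) and Rab38 was at 0.91 (adjusted p = 0.118). Rab29, a regulator of the kinase LRRK2, was at 4.24 ± 0.51 and 5.38 ± 0.32 CPM (0.34 ± 0.12, adjusted p = 0.0591).

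Of 13 members of the endoplasmic reticulum and Golgi, the largest group, 11 were tested, 2 rose and 0 fell. Rab33b, which binds the autophagy protein Atg16l1, rose from 9.29 ± 0.32 to 12.3 ± 1.15 CPM (0.40 ± 0.09, adjusted p = 0.00749), and Rab34, of the Golgi and of cilia, from 3.84 ± 0.18 to 6.18 ± 1.5 CPM (0.69 ± 0.17, adjusted p = 0.0154). The abundant members of this group did not pass: Rab1a had a log2 fold change of -0.09 ± 0.06, Rab1b of 0.12 ± 0.09, Rab2a of 0.04 ± 0.07, Rab6a of -0.14 ± 0.06 and Rab18 of -0.03 ± 0.06.
In the last group, 6 of 9 members were tested. Rab40b, which carries a SOCS box and joins a cullin ubiquitin ligase, was at 26.7, 28.8, 28 and 28.7 CPM in WT and 43.1, 36.7, 33.0 and 37.9 CPM in Mtm1-/y (0.43 ± 0.08, adjusted p = 0.00459). Rab44, a large Rab with EF hands known from granule release in mast cells, was at 0.56, 0.48, 0.75 and 0.57 CPM in WT and 1.22, 2.15, 1.48 and 1.18 CPM in Mtm1-/y (1.34 ± 0.26, adjusted p = 0.00433). The groups did not overlap for either gene. Of 7 mast cell markers 5 were tested and 0 passed, with sums of 3.61 to 7.96 CPM in WT and 4.52 to 7.77 CPM in Mtm1-/y. The part of mast cells in the Rab44 values was not tested. Rab28, of cilia and photoreceptor discs, fell from 87.8 ± 5.83 to 68.9 ± 6.20 CPM (-0.35 ± 0.08, adjusted p = 0.00995).

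**Figure D2:**
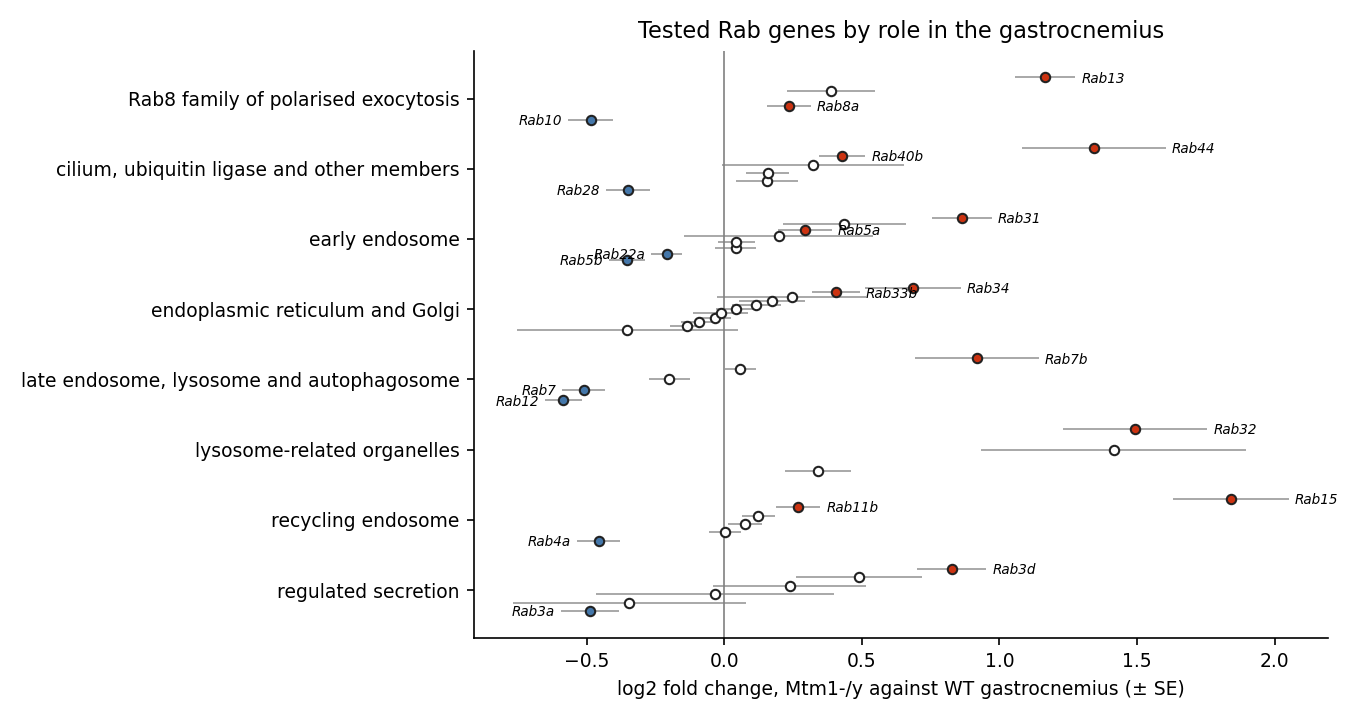
Log2 fold change (Mtm1-/y over WT, ± SE) of the 49 Rab genes tested in the gastrocnemius, grouped by the 8 roles, with rises in red, falls in blue and genes that did not pass as open points. Every role holds at least 1 rise, and falls appear in 6 of the 8 roles, none in the endoplasmic reticulum and Golgi group or in the group of lysosome-related organelles.

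The other 28 tested members ran from -0.35 to 1.42 on the log2 scale, and the 10 that were not tested (Rab19, Rab25, Rab26, Rab33a, Rab39, Rab3c, Rab42, Rab43, Rab4b and Rab9b) had WT means of at most 0.244 CPM. DESeq2 called 20 members, 12 upward and 8 downward (26.7% of all genes, 12.9% and 13.8%), 19 of them shared with edgeR. Of the 21 calls 17 held whichever library was left out, and 10 of these (Rab7, Rab12, Rab13, Rab15, Rab31, Rab32, Rab33b, Rab34, Rab3d and Rab44) also held under every other scaling, filter and fit tried. An edgeR fit of all 30 libraries lost Rab3a (-0.50, adjusted p = 0.0586), Rab4a (-0.47, 0.0511), Rab7b (0.91, 0.0662) and Rab40b (0.41, 0.251), besides Rab5a and Rab8a, and without the filter on low counts Rab11b was lost (0.27, 0.0525). The split of directions depends on the scaling: with library totals alone, without the TMM factors that correct for composition, the median of all genes moved to 0.35 and that of the members to 0.49, and 35 members were called, 33 higher and 2 lower (Rab12 and Rab7), while Rab22a turned to 0.13 and the other 5 falls kept their sign without passing. On that plain scale the 59 genes took 0.197% ± 0.004 of all counts in WT and 0.227% ± 0.003 in Mtm1-/y gastrocnemius, whereas their TMM-scaled sum over all 30 libraries went from 2409 ± 56.6 to 2224 ± 37.0 CPM (n = 4 each).

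The proteins that run the Rab cycle were read from 8 lists of 140 genes, of which 134 were tested in the gastrocnemius and 42 passed (18 higher, 24 lower; 29.0% of all genes passed), with a median log2 fold change of 0.02. Of 10 genes for prenylation and membrane recycling, 4 rose and 1 fell. Gdi2, a GDP dissociation inhibitor, rose from 116 ± 1.89 to 145 ± 12.4 CPM (0.32 ± 0.07, adjusted p = 0.00777). Arl6ip5, a PRA1-family membrane protein, rose from 144 ± 2.41 to 268 ± 49.6 CPM (0.90 ± 0.12), and Chm, the escort protein that presents new Rabs for prenylation, fell from 28.1 ± 1.94 to 21.1 ± 1.14 CPM (-0.41 ± 0.07).
Of 37 GEFs 3 rose and 9 fell. Dennd4b and Dennd4c, exchange factors for Rab10, also fell, Dennd4b from 163 ± 12.8 to 92.5 ± 5.38 CPM (-0.82 ± 0.08) and Dennd4c from 15.9 ± 1.59 to 10.5 ± 0.71 CPM (-0.59 ± 0.09). The Rab5 exchange factors Rin1 and Rin3 went apart, Rin1 from 2.22 ± 0.38 to 9.0 ± 3.23 CPM (2.02 ± 0.25) and Rin3 from 17.4 ± 1.55 to 9.26 ± 1.97 CPM (-0.91 ± 0.14). Of 38 GAPs, 37 were tested, 2 rose and 3 fell, with Tbc1d8 (0.53 ± 0.09) upward and Sgsm3 (-0.34 ± 0.07), Tbc1d16 (-0.45 ± 0.10) and Tbc1d22b (-0.28 ± 0.07) downward.
Among effectors, 2 of 10 early endosome genes fell, the tethers Rbsn (-0.34 ± 0.08) and Rabep1 (-0.30 ± 0.07), and 0 rose. Recycling endosome effectors had 5 rises and 3 falls among 10, with the smallest p for the Rab11 effector Rab11fip5, which went from 47.6 ± 5.55 to 93.0 ± 12.7 CPM (0.96 ± 0.11). Rab11fip1 (2.11 ± 0.48) and the motor Myo5a (0.54 ± 0.15) also rose, and the exocyst subunit Exoc6 fell (-0.27 ± 0.07). Late endosome effectors had 1 rise and 2 falls among 9. Fyco1, a Rab7 effector that also binds phosphatidylinositol 3-phosphate, fell from 481 ± 15.4 to 367 ± 14.9 CPM (-0.39 ± 0.06, adjusted p = 0.00156), the tethering subunit Vps41 fell (-0.33 ± 0.06) and the Rab7 effector Osbpl1a rose (0.36 ± 0.11). Of 12 secretory effectors 7 were tested and Rph3al fell (-0.60 ± 0.11). Of 14 Rab8 family effectors and kinases 3 rose and 3 fell, among them Micall1 (0.71 ± 0.09), Micall2 (0.77 ± 0.19), Mical2 (-0.94 ± 0.14) and Optn (-0.64 ± 0.10). In diaphragm, heart and liver 0 genes of these lists passed.

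In the diaphragm 54 members were tested and 0 passed by edgeR, where 0.0119% of 16796 genes did, and the smallest adjusted p among members was 0.265. At an unadjusted p under 0.05 there were 7 members (10.8% of all genes), with Rab15, Rab27b, Rab31, Rab40b, Rab33b and Rab13 higher and Rab9b lower. The same 7 were those whose genotypes did not overlap, against 9.97% of all genes. DESeq2 called 2 members, Rab15 and Rab40b, both higher (2.37% of all genes passed, 1.70% upward), and an edgeR fit of all 30 libraries called the same pair.
Rab15 was at 11, 15.5, 18.2 and 15.3 CPM in WT and at 34.0, 32.3 and 72.7 CPM in Mtm1-/y replicates 1, 2 and 4. The Mtm1-/y libraries were all above the WT ones, with replicate 4 far above the others (1.63 ± 0.32, edgeR adjusted p = 0.265, DESeq2 adjusted p = 0.000302). Rab40b was at 4.96, 8.56, 8.16 and 7.13 CPM in WT and at 13.3, 10.3 and 28.6 CPM in Mtm1-/y (1.27 ± 0.37, edgeR adjusted p = 0.316, DESeq2 adjusted p = 0.0352). Here too replicate 4 was the highest, and without it the edgeR log2 fold changes were 1.15 for Rab15 and 0.72 for Rab40b. That library also had the highest sum of the satellite cell and regenerating fibre markers, 367 CPM, against 110 and 112 CPM in the other Mtm1-/y libraries and 27.3 to 45.4 CPM in WT, and the part of those cells in both values was not tested. Rab31 was at 16.2 to 20.7 CPM in WT and 21.6 to 46.4 CPM in Mtm1-/y (0.86 ± 0.25, adjusted p = 0.313), and Rab13 at 9.96 to 10.9 CPM and 11.6 to 19.8 CPM (0.54 ± 0.18, adjusted p = 0.381).

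The members that fell in the gastrocnemius had small differences in the diaphragm that did not pass: -0.07 ± 0.10 for Rab7, -0.20 ± 0.18 for Rab12, -0.06 ± 0.11 for Rab5b, -0.30 ± 0.30 for Rab4a and 0.18 ± 0.21 for Rab10. Of the 13 that rose in the gastrocnemius, 11 were above 0 in the diaphragm, with a median of 0.28 against -0.01 over all genes tested. The 13 were chosen for rising in the other muscle, so all genes are not a like set for them. The share above 0 among all genes that rose in the gastrocnemius was not computed. The difference between the tissues was called by edgeR for 0 of 54 members (0.280% of all genes), with a smallest adjusted p of 0.0905 among the 21. By DESeq2 it was called for Rab3d (diaphragm minus gastrocnemius -0.77, adjusted p = 0.00969) and Rab7 (0.46, adjusted p = 0.00814), and without WT diaphragm replicate 3 edgeR called 1, Rab3d (-0.87, adjusted p = 0.0436).

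Rab32 and Rab17, both highest in WT liver, varied between diaphragm libraries together with the hepatocyte transcripts. Rab32 was at 18.5, 12.8, 3.36 and 11.6 CPM in WT replicates 1 to 4 and at 9.36, 17.9 and 4.55 CPM in Mtm1-/y replicates 1, 2 and 4. Rab17, an epithelial Rab, was at 7.03, 5.31, 1.31 and 9.28 CPM in WT and at 3.04, 11.2 and 0.63 CPM in Mtm1-/y. The summed hepatocyte markers of the same libraries were 35143, 23893, 444 and 25897 CPM in WT and 2821, 44903 and 764 CPM in Mtm1-/y, so the libraries with the fewest hepatocyte transcripts, WT 3 and Mtm1-/y 4, were also the lowest for Rab32 and Rab17. The genotype difference was -0.13 ± 0.62 for Rab32 and -0.23 ± 0.95 for Rab17. With the mean log2 level of the hepatocyte markers, not their sum, as a covariate it was 0.24 and -0.08. With that covariate Rab15 was at 1.45 (edgeR adjusted p = 0.0565) and Rab40b at 1.04 (adjusted p = 0.178). Neither passed, and neither had passed by edgeR without it (adjusted p = 0.265 and 0.316).

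**Figure D3:**
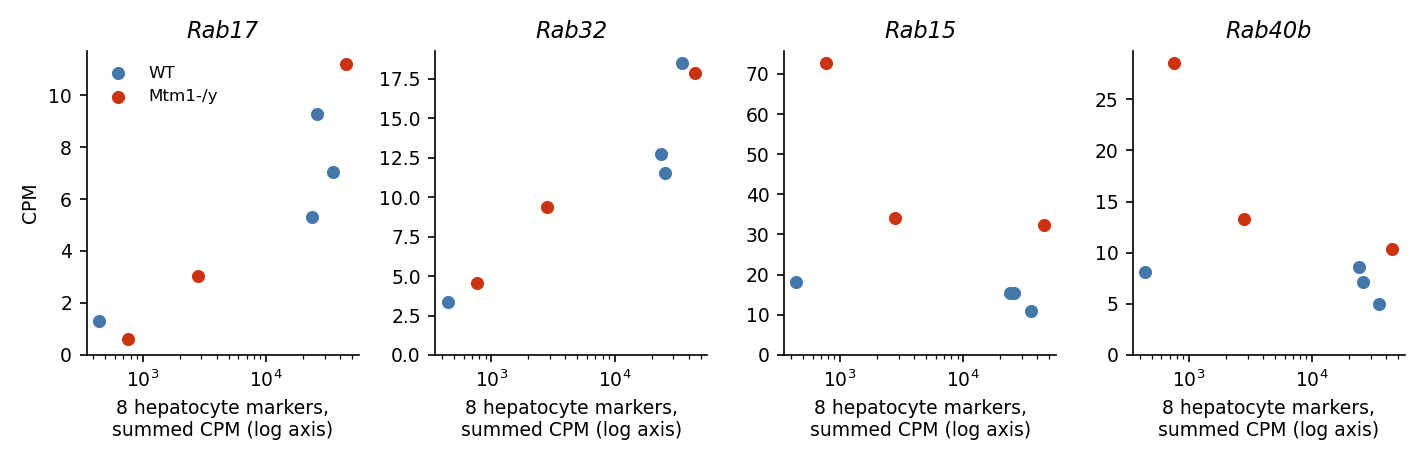
CPM of Rab17, Rab32, Rab15 and Rab40b in each diaphragm library (WT in blue, n = 4, Mtm1-/y in red, n = 3) against the summed CPM of 8 hepatocyte markers in that library. Rab17 and Rab32 are lowest in the libraries with the fewest hepatocyte transcripts, WT 3 and Mtm1-/y 4, whereas Rab15 and Rab40b separate by genotype, with Mtm1-/y replicate 4 highest.

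In the heart 52 members were tested and 0 passed by edgeR or by DESeq2 (0.00656% and 0.453% of all genes passed), with a smallest edgeR adjusted p of 0.546. At an unadjusted p under 0.05 edgeR gave 5 members (8.88% of all genes), Rab34, Rab15, Rab27b and Rab3b lower and Rab37 higher, and the genotypes of 2 members did not overlap (4.26% of all genes). Rab15 was at 1.84, 1.08, 1.87 and 3.01 CPM in WT and at 1.05, 1.19, 0.60 and 1.28 CPM in Mtm1-/y (-0.92 ± 0.34), with overlapping groups. Rab34 was at 9.45 to 14.5 CPM in WT and 7.01 to 9.42 CPM in Mtm1-/y (-0.50 ± 0.16). Rab27b was high in WT replicate 4 alone, at 10.4 CPM against 2.09 to 3.31 CPM in the other WT libraries and 1.77 to 2.53 CPM in Mtm1-/y. That library had a mesothelial marker sum of 240 CPM, against 46.9 to 94.8 CPM in the other 3, and the part of those cells was not tested.
In the liver 46 members were tested and 0 passed by either tool (0% of all genes by edgeR, 0.135% by DESeq2), with a smallest edgeR adjusted p of 0.969. A single member had an unadjusted p under 0.05 (4.24% of all genes), Rab23, a regulator of hedgehog signalling, at 10.3 to 12.7 CPM in WT and 7.35 to 10.7 CPM in Mtm1-/y (-0.39 ± 0.16). The genotypes of 3 of 46 members did not overlap, against 6.09% of all genes. Rab10 was at 74.2 ± 0.23 CPM (n = 3) and 79.9 ± 6.76 CPM (n = 4), and Rab7 at 118 ± 3.17 and 114 ± 9.97 CPM.

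**Figure D4:**
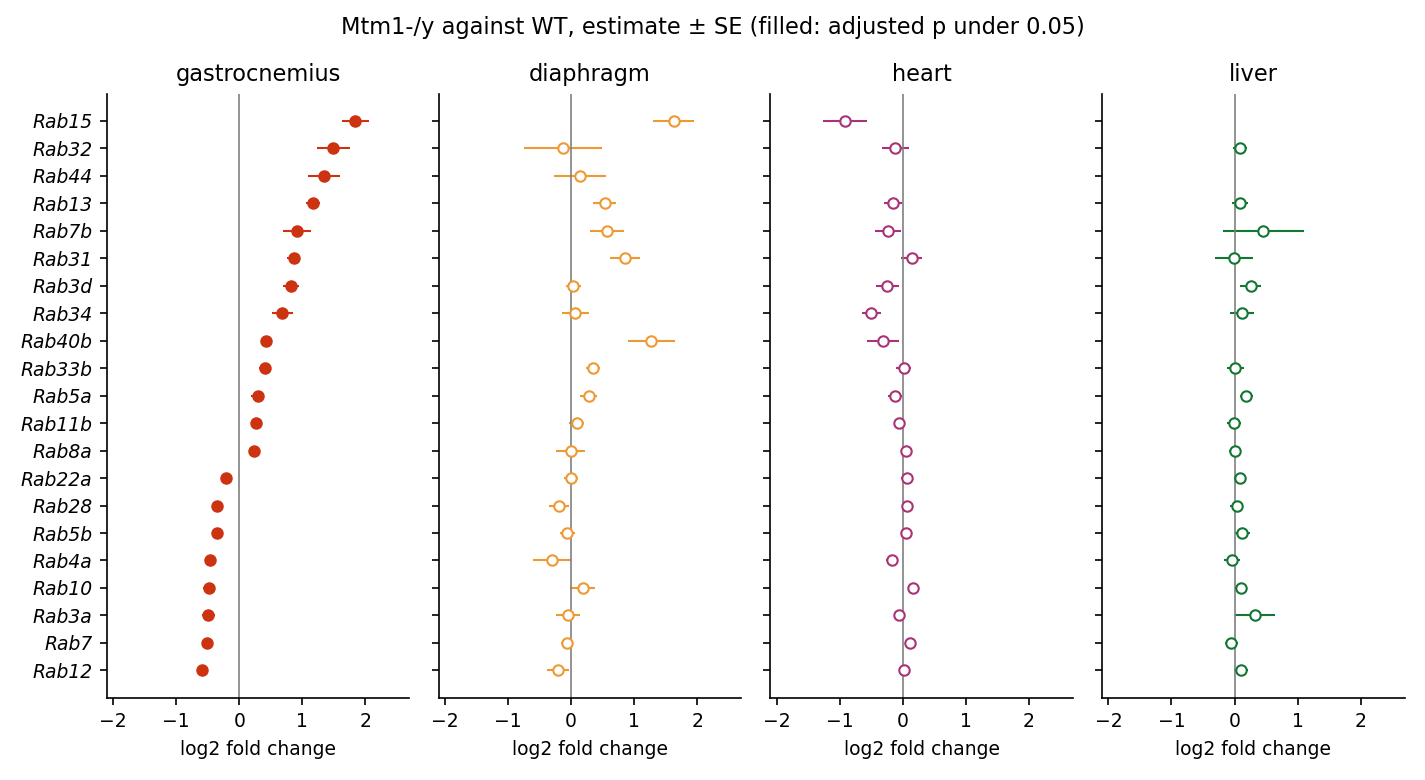
Log2 fold change (Mtm1-/y over WT, ± SE) in the 4 tissues for the 21 Rab genes that passed in the gastrocnemius, with filled points at an edgeR adjusted p under 0.05. Filled points occur only in the gastrocnemius, and Rab15 lies at 1.84 there, at 1.63 in the diaphragm and at -0.92 in the heart.

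Whether the genotype effect differed from that of the gastrocnemius was tested directly by an interaction term. For heart minus gastrocnemius 15 of 55 members passed, 6 with a positive and 9 with a negative difference (19.8% of all genes, 9.94% and 9.89%). They comprised Rab15 (-2.74 ± 0.41), Rab13 (-1.30 ± 0.18), Rab32, Rab34, Rab3d, Rab7b, Rab44, Rab31 and Rab40b on the negative side and Rab10 (0.67 ± 0.12), Rab7 (0.65 ± 0.11), Rab12 (0.63 ± 0.11), Rab3a, Rab28 and Rab5b on the positive side. For liver minus gastrocnemius 6 of 53 passed, 4 positive and 2 negative (6.34% of all genes, 3.63% and 2.71%): Rab12 (0.72 ± 0.12), Rab10, Rab5b and Rab7 upward, and Rab32 (-1.37 ± 0.27) and Rab13 (-1.05 ± 0.16) downward. Rab44 was too low to be tested in the heart alone, with 7 to 13 reads in WT and 3 to 12 in Mtm1-/y libraries, and entered this fit through its gastrocnemius counts. It is counted in the 15 and in the 9, and its call was lost without the filter on low counts (edgeR adjusted p = 0.0586). These differences use the same gastrocnemius libraries as the genotype comparison above and are no second observation of it.

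Expression in WT tissues was compared per kilobase of exon, after TMM scaling over all 30 libraries, so that genes of unequal length can be set side by side. Rab10 had the highest level in gastrocnemius, 126.8 ± 7.90 CPM per kb (SD, n = 4), followed by Rab7 (76.9 ± 6.66) and Rab12 (73.7 ± 4.53), and Rab7 and Rab12 did not differ beyond their spread. These 3 took 38.5% of the summed level of all Rab genes, against 28.3% to 29.0% for the top 3 of each other tissue. In the diaphragm Rab10 (60.7 ± 11.2), Rab1b (52.9 ± 2.28) and Rab7 (49.9 ± 3.52) overlapped one another. In the heart Rab2a (55.5 ± 6.77), Rab1b (52.7 ± 1.41) and Rab7 (47.4 ± 3.40) were the highest, and in the liver Rab1b (69.0 ± 0.97 CPM per kb, n = 3), Rab5c (56.4 ± 0.76) and Rab7 (56.1 ± 1.23). Rab1 and Rab2 act between the endoplasmic reticulum and the Golgi in every cell, and 21 members, Rab1a, Rab1b, Rab2a, Rab5a, Rab5b, Rab7, Rab11a, Rab11b and Rab14 among them, had WT means within 2-fold of each other over the 4 tissues.

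Each WT tissue was then tested against the mean of the other 3, where a call needed an adjusted p under 0.05 and a log2 fold change beyond 1. Of 56 members in this fit 31 were called in at least 1 tissue, against 63.1% of all genes. The low-count filter ran over all 15 WT libraries, for members and all genes alike. A gene with reads in 1 tissue could thus enter with counts near 0 in another. Rab9b, called higher in the gastrocnemius, diaphragm and heart and lower in the liver, is such a member. The WT gastrocnemius libraries serve both this contrast and the genotype comparison, so the values of both are only set side by side.
In the gastrocnemius 7 members were higher and 9 lower (36.1% of all genes, 18.0% and 18.1%). Rab40b stood out, at 14.6 to 15.5 CPM per kb in the 4 gastrocnemius libraries, 2.14 to 3.76 in the diaphragm, 0.64 to 0.95 in the heart and 0.02 to 0.08 in the liver, where it had 1, 4 and 2 reads. The ranges follow each other without overlap, and the gastrocnemius contrast was 5.01 ± 0.16 on the log2 scale (adjusted p = 5.16e-12). Rab10 (1.79 ± 0.09), Rab12 (1.64 ± 0.10) and Rab28 (1.24 ± 0.07) were also higher, and Rab20 (-2.57 ± 0.25), Rab8a (-1.24 ± 0.12), Rab32 (-3.44 ± 0.39) and Rab17 (-3.80 ± 0.47) were lower. Of the 7 higher members, Rab10, Rab12, Rab28 and Rab3a fell in Mtm1-/y gastrocnemius, as given above. Rab40b and Rab15 (3.17 ± 0.24 in this contrast) rose further there, and Rab9b was not tested. Of the 9 lower ones, Rab32, Rab3d and Rab8a rose, the Rab8a call being lost without any 1 of 6 libraries. Rab17, Rab20 and Rab3b did not pass, and Rab19, Rab39 and Rab43 were not tested.
In the diaphragm 9 members were higher and 1 lower (22.1% of all genes, 21.0% and 1.11%), on a background median of 0.11 over all genes. Rab15 (3.52 ± 0.24), Rab40b (1.91 ± 0.17), Rab44 (1.65 ± 0.20) and Rab7b (1.63 ± 0.21) were higher and Rab20 was lower (-1.62 ± 0.23). Rab15 had 2.06 to 3.38 CPM per kb in diaphragm and 1.62 to 2.99 in gastrocnemius, ranges that overlap, against 0.20 to 0.55 in heart. It had only 3, 1 and 2 reads in the WT liver libraries. Its fitted fold change, like that of Rab40b, thus rests in part on liver counts near 0. Rab32 passed at 1.15 but lost the call without WT diaphragm replicate 1 (0.89), and without the 3 WT diaphragm libraries high in hepatocyte markers it was at -0.63 (adjusted p = 0.112), the 1 library left being assumed to vary like the other groups.
In the heart 10 members were higher and 3 lower (32.7% of all genes, 19.6% and 13.2%). Rab20, a Rab of phagosomes and hypoxia, was at 12.3 to 15.5 CPM per kb in heart, 8.41 to 11.5 in liver, 0.82 to 2.13 in diaphragm and 0.72 to 1.26 in gastrocnemius, and its heart contrast was 2.47 ± 0.19. Rab31 (1.17 ± 0.11) and Rab3a (1.06 ± 0.11) were higher, and Rab4a (-1.24 ± 0.11), Rab32 (-1.96 ± 0.35) and Rab17 (-1.29 ± 0.39) lower. Without the 3 WT diaphragm libraries high in hepatocyte markers Rab17 was at -0.57, under the limit of 1, and Rab32 at -1.36. Rab9b was called higher on 9 to 18 reads a library, with all 3 liver libraries at 0 reads, so its fitted fold change is not given. Rab27b was called at 1.06 and lost the call without WT heart replicate 4 (0.32, adjusted p = 0.154), and Rab33a, with 12, 7, 18 and 52 reads in the heart libraries, no longer passed the filter without that library.
In the liver 11 members were higher and 15 lower (52.5% of all genes, 21.8% and 30.7%), with a median of -0.13 over all genes. Of the 15, Rab15, Rab37, Rab39b, Rab40b, Rab42, Rab44, Rab6b and Rab9b were too low to be tested by genotype in the liver alone. They entered this fit through other tissues, so their calls as lower are tied to that filter. Rab32 (4.25 ± 0.28), Rab8a (1.91 ± 0.11), Rab9 (1.65 ± 0.09) and Rab4a (1.51 ± 0.10) were higher. Rab40b (-6.16 ± 0.31, on the 1, 4 and 2 liver reads given above), Rab3a (-2.83 ± 0.15), Rab12 (-2.76 ± 0.14) and Rab28 (-2.16 ± 0.10) were lower. Rab32 measured 20.7 to 23.4 CPM per kb in liver and 0.26 to 0.47 in gastrocnemius, and Rab12 7.12 to 8.34 in liver and 67.3 to 77.3 in gastrocnemius.

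**Figure D5:**
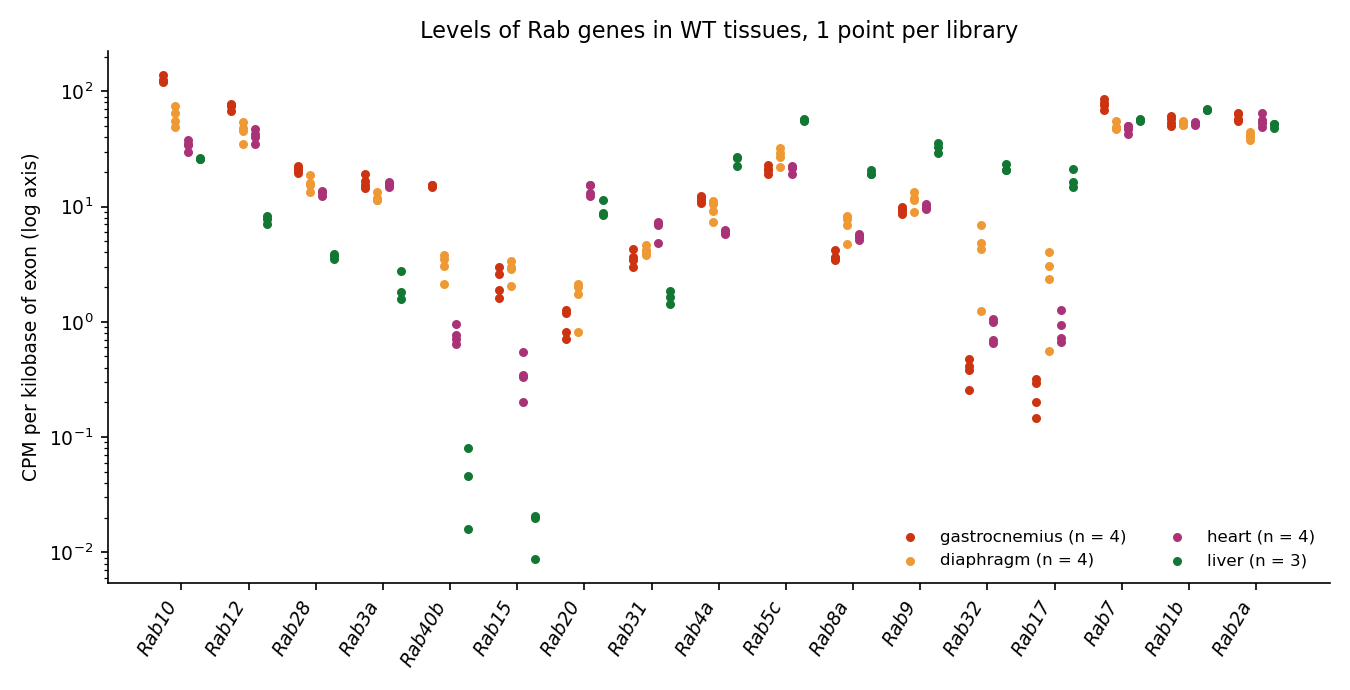
CPM per kb of exon (log axis) of 17 Rab genes in each WT library of gastrocnemius, diaphragm and heart (n = 4 each) and liver (n = 3). Rab40b falls from about 15 CPM per kb in the gastrocnemius to below 0.1 in the liver, Rab32 and Rab17 run the other way, and Rab7 stays within 42.9 to 85 CPM per kb in every library.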

How the data were processed

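Total RNA of snap-frozen tissues was made into TruSeq Stranded mRNA libraries and sequenced as single 50-base reads, with bcl2fastq 2.17.1.14 for base calling. The authors trimmed reads with cutadapt 1.10, mapped the reads to mm10 (STAR 2.5.3a), and assigned uniquely aligned, non-ambiguous reads to Ensembl 96 genes (HTSeq 0.6.1p1, union mode), so 50-base reads shared by near-identical paralogs were not counted. The deposited values are these raw counts, 1 column per library, and 30 of 30 columns were used.

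Here, edgeR 4.0.16 in R 4.3.3 was fitted per tissue (filterByExpr with a count minimum of 10, TMM factors, quasi-likelihood test, Benjamini-Hochberg adjustment over all genes tested, threshold 0.05), with SE taken as the absolute log2 fold change over the square root of F. Interactions were fitted over both tissues' libraries, and WT tissues over 15 libraries, where a call also needed an absolute log2 fold change over 1. Values are CPM with TMM-scaled library sizes, within the tissue for genotype and over all 30 libraries, per kb of exon, between genes and tissues. DESeq2 1.42.0, other scalings, no filter, a fit of all libraries, a replicate block and each library left out were alternatives. Scripts were tested on simulated data. The members, lists and roles were chosen with earlier results of these data known. Named with values were members passing in any genotype comparison or interaction (per library for the 12 with the smallest p in the gastrocnemius, those changed over 2-fold and those called elsewhere), 10 endosomal members whatever their values, the 3 highest members per WT tissue, up to 4 members per WT contrast and direction, and up to 4 genes per pathway list, by p. One pathway gene that this rule names is not reported here. Rab38, Rab25 and other members that did not pass were named after their values were seen. Within-group pairs of libraries differed by more than sampling noise in all 42 cases (chi-square over degrees of freedom 11.3 to 491), so none was counted as a duplicate.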

Additional observations from a re-analysis of the deposited data

Results flagged for a closer look

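The genotype effect differed from that of the gastrocnemius, by the interaction test (edgeR adjusted p under 0.05), for the following members, with the difference on the log2 scale and its SE. For heart minus gastrocnemius these were Rab13 (-1.30 ± 0.18, adjusted p = 0.000412), Rab15 (-2.74 ± 0.41, 0.000652), Rab7 (0.65 ± 0.11, 0.00155), Rab12 (0.63 ± 0.11, 0.00173), Rab10 (0.67 ± 0.12, 0.0021), Rab5b (0.42 ± 0.08, 0.00364), Rab34 (-1.17 ± 0.24, 0.00407) and Rab3d (-1.05 ± 0.23, 0.00581). Rab32 (-1.59 ± 0.35, 0.00591), Rab28 (0.43 ± 0.11, 0.0126), Rab7b (-1.14 ± 0.31, 0.0208), Rab44 (-1.72 ± 0.50, 0.0262), Rab3a (0.45 ± 0.13, 0.0265), Rab31 (-0.71 ± 0.21, 0.0266) and Rab40b (-0.73 ± 0.23, 0.0348) followed. Of these 15, Rab31, Rab3a, Rab40b and Rab44 lost the call when some single library was left out, Rab40b in 9 of 16 cases, and their adjusted p then reached at most 0.0557, 0.0517, 0.0765 and 0.0564. With the replicate number as a block the calls of Rab31, Rab40b and Rab44 were lost (adjusted p = 0.0772, 0.0807 and 0.0689), and in a fit of all 30 libraries those of Rab28, Rab32, Rab7b, Rab44, Rab31, Rab40b and Rab3a (0.0616 to 0.259). Without the filter on low counts edgeR lost the calls of Rab3a, Rab40b and Rab44 (adjusted p = 0.0546, 0.0506 and 0.0586).

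For liver minus gastrocnemius they were Rab13 (-1.05 ± 0.16, 0.00274), Rab12 (0.72 ± 0.12, 0.00623), Rab32 (-1.37 ± 0.27, 0.0104), Rab10 (0.62 ± 0.13, 0.0135), Rab5b (0.51 ± 0.13, 0.0288) and Rab7 (0.49 ± 0.13, 0.0341). Rab5b and Rab7 lost the call in 7 and 9 of 15 fits with 1 library left out, with adjusted p of at most 0.0674 and 0.0752. They also lost it with the replicate block (0.0646 and 0.0507) and without the filter on low counts (0.0593 and 0.0772). The fit of all 30 libraries lost Rab10 (0.0606) and Rab32 (0.152).

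A single library stood far from the other 3 of its group in 8 of 125 groups of 4 tested among the members named for their genotype effect, where chance gives about 1 in 20. Rab7 was at 163 CPM in WT diaphragm replicate 2, Rab10 at 450 CPM in WT gastrocnemius replicate 2 and at 335 CPM in Mtm1-/y gastrocnemius replicate 2, and Rab3a at 44.3 CPM in Mtm1-/y heart replicate 2. WT heart replicate 4 accounted for the other 4, with Rab22a at 56.9 CPM, Rab31 at 21.9 CPM, Rab33b at 16.9 CPM and Rab3d at 34.2 CPM. That heart library also had the highest mesothelial (240 CPM) and fibroblast (1835 CPM) marker sums of the WT hearts, and their part in these values was not tested.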

How the results depend on the processing

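The count of 21 members called in the gastrocnemius was 16 to 20 by DESeq2 size factors, no filter on low counts, DESeq2, a fit of all 30 libraries and the replicate block, 4 with a further limit of 1 on the log2 scale, and 35 with library totals alone, a scaling chosen after seeing the data. In the diaphragm DESeq2 and the fit of all libraries each called 2 members instead of 0, and for diaphragm minus gastrocnemius DESeq2 called 2 and edgeR without WT diaphragm replicate 3 called 1. The fit of all libraries called 9 instead of 15 for heart minus gastrocnemius. In Mtm1-/y libraries the diaphragm contrast called 6 instead of 10, and the heart contrast 14, 6 higher and 8 lower, in place of 13 (10 and 3). The cause was not tested in any of these. With each library left out in turn, calls ranged from 17 to 20 for genotype in the gastrocnemius and were 0 each for diaphragm, heart and liver. They ranged from 15 to 19, 8 to 10, 11 to 15 and 25 to 28 for WT gastrocnemius, diaphragm, heart and liver, and from 0 to 1, 12 to 21 and 4 to 8 for the differences of diaphragm, heart and liver from the gastrocnemius. Sign changes were seen in values near 0: Rab14 in the gastrocnemius (-0.0025 by DESeq2, -0.0095 in the fit of all libraries, -0.011 to 0.031 with 1 library left out), Rab5c (-0.00016 to 0.075 with 1 library left out), Rab22a (0.13 with library totals alone), Rab32 in the diaphragm (0.24 with the hepatocyte covariate, -0.73 to 0.24 with 1 library left out) and Rab17 there (-1.63 to 0.30 likewise).

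Same-numbered WT and Mtm1-/y libraries did not deviate together (14 pairs, correlations -0.71 to 0.52, 4 over 0.1, 5 best with their own number), so the numbers were not taken to pair them. For WT libraries of the same number in different tissues the deviations had correlations of -0.083 to 0.33 (21 pairs, 11 over 0.1). Pairs with different numbers were not compared, so these values cannot tell whether libraries of 1 number share an animal. For genotype and for the differences from the gastrocnemius, the replicate block joined same-numbered WT and Mtm1-/y libraries within a tissue. In the WT contrasts it joined same-numbered libraries across tissues. Any deviations shared between tissues were thus not modelled in the tests of the differences. The block gave 20 calls in the gastrocnemius, 0 in the other tissues, 16, 9, 12 and 26 for the WT contrasts of gastrocnemius, diaphragm, heart and liver, and 0, 12 and 6 for the differences from the gastrocnemius.

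Members below about 1 CPM, such as Rab38 and Rab44, rest on few reads, and 3 Mtm1-/y diaphragm and 3 WT liver libraries limit those tests.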

Other observations

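Members at or near the detection limit still showed single libraries with reads. Rab25, an epithelial Rab11 relative, had 0 reads in 8 of the 30 libraries, and Rab3c, a neuronal Rab, in 18 of 30, with at most 49 reads in any library. Rab33a was at 0 in 6 libraries and reached 52 reads in WT heart replicate 4. Of the other marker lists in Mtm1-/y gastrocnemius, 1 of 4 tested blood and platelet genes, 1 of 1 mesothelial gene, 1 of 1 melanocyte gene and 2 of 4 cardiomyocyte genes rose, 1 cardiomyocyte gene fell (the sum of the 6 on that list was 6746 to 7899 CPM in WT and 644 to 2521 CPM in Mtm1-/y), 0 of 1 neuron and 0 of 6 Schwann cell genes passed, 1 of 8 hepatocyte genes rose and 1 fell, and the 5 lymphocyte genes were not tested.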
